A study of Mus musculus with 22 samples.

Results

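The genes described here encode collagens that do not build the thick banded fibrils of tissue: the beaded-filament chains Col6a1, Col6a2 and Col6a3, the network-forming chains Col8a1 and Col8a2, the fibril-associated Col12a1 and Col14a1, and the multiplexins Col15a1 and Col18a1. They are 9 of the 18193 genes that could be named on the array. A probe set, the group of short probes that reports a transcript, was taken where it was annotated to exactly 1 of these symbols; 18 probe sets qualified, and each gene is represented by its brightest probe set on average across the 22 arrays. Values are intensities on the authors' linear scale, 1 per probe set and array. RNA came from male C57BL/6 mice, either wild type (WT) or lacking tenascin C (TNC-KO, here KO).

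The 14 cell arrays hold aortic smooth muscle cells grown from the suprarenal aorta of KO mice, so every cell group, the untreated group included, lacks the mouse's own tenascin C. The cells were left untreated (3 arrays), given 10 ng/mL tumour necrosis factor alpha (TNF, 3 arrays), given 10 ug/mL exogenous tenascin C (TNC, 4 arrays), or given both (4 arrays). The series' design text speaks of 3 independent cultures without and 4 with exogenous TNC; whether the TNF arrays come from the same cultures as the arrays without TNF is not stated. The 8 tissue arrays each hold pooled RNA, 1 array for each combination of genotype, segment (suprarenal or infrarenal, 10 mm each) and treatment. Untreated pools hold 5 mice. The treated pools, called CaAngII here, hold 8 mice that had 0.5 M CaCl2 laid on the infrarenal aorta and received angiotensin II at 1 ug/min/kg for 1 week. The suprarenal segment of a treated mouse was therefore exposed to the angiotensin II but lay outside the stretch given CaCl2.

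Collagen VI assembles from 3 different chains into tetramers and then beaded microfilaments that surround cells and link them to the matrix; its alpha 3 chain also releases the fragment endotrophin. Collagen VIII is a short-chain collagen of the subendothelium and of remodelling arteries, built from the Col8a1 and Col8a2 chains, and is known to be made by smooth muscle cells after vessel injury. Collagens XII and XIV sit on the surface of collagen I fibrils and bind partners such as decorin, tenascin X and cartilage oligomeric matrix protein. Collagens XV and XVIII lie at basement membranes, carry glycosaminoglycan chains, and release the fragments restin and endostatin.

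The promoters of both collagen VIII chains and of the neighbouring Col6a1 and Col6a2 are shown, because Col8a1 fell in all 4 comparisons of a factor in the cells, Col8a2 had the widest ratios in the infrarenal tissue, and the Col6a1 and Col6a2 values ran together in the tissue. Each is the 250 bases before a RefSeq transcript start on GRCm38.p6, 5′ to 3′ on the gene's strand. Capitals mark matches, on either strand, to a GC box (GGGCGG) or to an AP-1 site (TGANTCA).
Col8a1: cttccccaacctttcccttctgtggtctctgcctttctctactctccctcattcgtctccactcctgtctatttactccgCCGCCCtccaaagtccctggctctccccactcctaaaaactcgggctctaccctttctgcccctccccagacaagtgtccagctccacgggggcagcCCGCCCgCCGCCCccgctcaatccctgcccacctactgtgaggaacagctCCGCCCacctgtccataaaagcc
Col8a2: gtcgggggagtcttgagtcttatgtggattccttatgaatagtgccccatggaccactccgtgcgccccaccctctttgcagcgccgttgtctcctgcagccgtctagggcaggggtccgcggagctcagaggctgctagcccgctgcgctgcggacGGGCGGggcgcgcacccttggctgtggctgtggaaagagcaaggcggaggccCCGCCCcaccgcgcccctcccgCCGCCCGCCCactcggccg
Col6a1: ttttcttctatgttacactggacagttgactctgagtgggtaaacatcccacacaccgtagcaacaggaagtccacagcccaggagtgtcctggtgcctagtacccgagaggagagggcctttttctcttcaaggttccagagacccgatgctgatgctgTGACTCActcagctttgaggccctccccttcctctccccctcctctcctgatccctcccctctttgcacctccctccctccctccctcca
Col6a2: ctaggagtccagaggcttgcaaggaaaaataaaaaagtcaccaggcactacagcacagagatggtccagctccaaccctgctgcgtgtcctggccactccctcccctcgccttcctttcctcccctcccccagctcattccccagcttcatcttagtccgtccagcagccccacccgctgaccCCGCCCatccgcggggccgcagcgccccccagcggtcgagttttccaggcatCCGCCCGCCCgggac
The windows lie at chr16:57754738-57754987 (minus strand), chr4:126286544-126286793 (plus strand), chr10:76726045-76726294 (minus strand) and chr10:76623405-76623654 (minus strand). RefSeq lists a second start for Col6a2, not printed. Col6a2 and Col6a1 are direct neighbours among the protein-coding genes of chromosome 10, and Col18a1 follows with 2 such genes between.

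The Col8a1 and Col8a2 windows each held 4 GC boxes and the Col6a2 window held 3, some of them overlapping or adjoining. The Col6a1 window held no GC box and 1 AP-1 site. A GC box was found in 32.7% and an AP-1 site in 6.75% of 32851 promoter windows of the same length. The TATA box, spelled TATAAA, had no match in these 4 windows on either strand and was in 12.4% of all windows. The same held for the CCAAT box, in 33.8% of all windows, and for an NF-kB motif, in 1.41%. G and C made up 60.8% of the Col8a1 window, 70.0% of Col8a2, 56% of Col6a1 and 64.4% of Col6a2. The median over all windows was 52.4%. The motifs and the windows were chosen after the expression values had been seen, and a match is a run of letters only.

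Array medians ran from 51.0 to 64.6 in the cells and from 119 to 134 in the pools, so levels in cells and tissue are set side by side without a test. Tnc, the deleted gene, read 1805 to 2699 in the 4 WT pools, 257 to 489 in the 4 KO pools and 66.3 to 144 in the cells. Another Tnc probe set, of low signal, read less in the untreated KO pools (99.1 against 268 suprarenal, 142 against 345 infrarenal), close under infrarenal CaAngII (242 against 251) and higher in KO under suprarenal CaAngII (223 against 151). The labelled cell type was checked against 7 smooth muscle markers: Acta2 and Tagln were bright in all 14 cell arrays (at least 15304 and 7351), while Myh11, the smooth muscle myosin, read only 27.9 to 407 against 14216 in the untreated KO suprarenal pool. All 7 endothelial markers were above the 30th percentile on every cell array, with summed intensities of 17400 to 23303 in the cells against 7114 in that pool, most of it from Emcn (9298 to 14206 in the cells). Macrophage markers were low in the cells (summed 397 to 581). In bulk RNA, fewer cells of a type and less RNA per cell cannot be told apart.

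In the cells, the network chain Col8a1 fell and the multiplexin Col18a1 rose with either factor, whether or not the other was present. Col12a1 fell with either factor given alone. Col6a3 fell with TNC, and Col14a1 passed the test in no comparison. Changes are on the log2 scale with the standard error (SE) of a limma fit over all 4 groups; adjusted p-values are limma's, Benjamini-Hochberg adjusted over the 15534 genes tested, and a gene was called under 0.05. All 9 members passed the filter on low values.

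**Figure D1:**
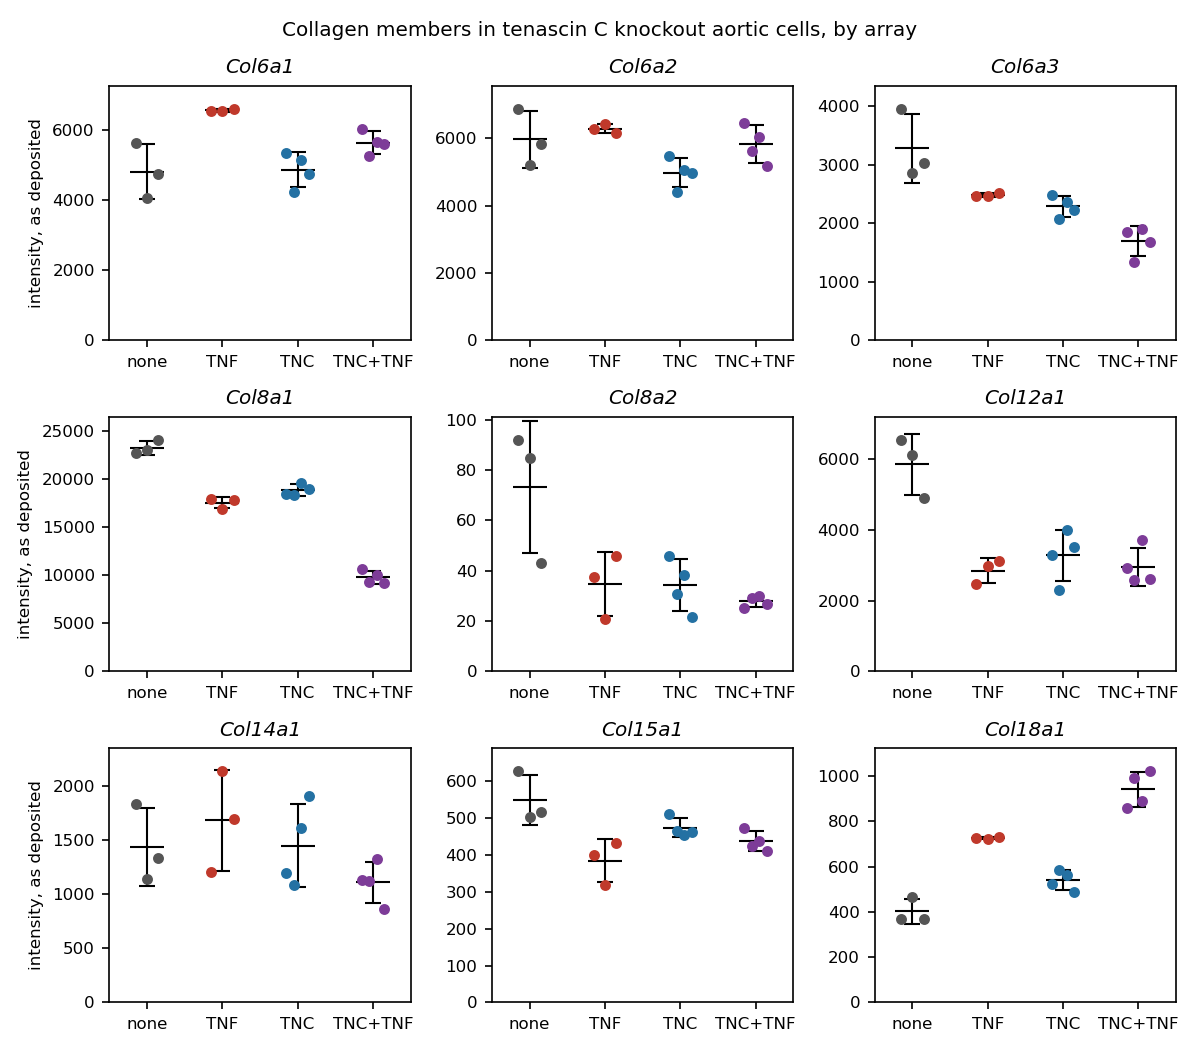
Intensity of the 9 collagen genes on each of the 14 cell arrays (y axis, linear, as deposited, starting at 0) by treatment (x axis); points are arrays, the wide bar is the group mean and the error bars are 1 SD. Col8a1 lies at 22718 to 24090.1 on the untreated arrays and at 9229.8 to 10648 with both factors, and Col18a1 at 369 to 468 and at 861 to 1022.

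Of the collagen VIII chains, Col8a1 read 22718, 23087 and 24090.1 in untreated cells. With TNF it read 17918, 16961 and 17866, and with TNC it read 18501, 18328, 19644 and 19051. With both factors the arrays read 10648, 9326, 10074 and 9229.8. Untreated arrays were the highest, the arrays with a single factor lay below all of them, and the arrays with both factors lay below every other array. Col8a1 fell with TNF, by a log2 change of -0.41 without TNC (SE 0.06, adjusted p = 0.000329) and -0.95 with TNC (SE 0.05, adjusted p = 4.93e-07). It fell with TNC as well, with -0.30 in the absence of TNF (SE 0.06, adjusted p = 0.00208) and -0.84 in its presence (SE 0.06, adjusted p = 1.78e-06). The 2 TNF effects themselves differed, with an interaction of -0.54 (SE 0.08, adjusted p = 0.000865). Both factors together against none gave -1.25 (SE 0.06, adjusted p = 1.71e-08). TNC alone and TNF alone were neighbours in this order whose difference did not pass the test (0.10, 95% interval -0.02 to 0.23, adjusted p = 0.218). When each array was centred on its median the change with TNC alone was -0.13 and no longer passed (adjusted p = 0.270).

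The 3 Col8a1 probe sets moved the same way by unequal amounts. The probe set used above was close to the brightest values on the cell arrays, which were 26915 to 33291. Whether brightness bears on the unequal amounts was not tested. The second gave -0.52 and -1.29 for TNF without and with TNC, and -0.25 and -1.02 for TNC without and with TNF. The dimmest read 6037 to 7190.2 in untreated cells and 447 to 659 with both factors. It gave -1.77 and -2.54 for TNF, -1.02 and -1.78 for TNC, and -3.55 for both factors against none. All these changes were called when every probe set was tested by itself. The difference between TNC alone and TNF alone, not called on the probe set used, was called on the second (0.27) and on the dimmest (0.75). The interaction was called on all 3 (-0.54, -0.77 and -0.76).

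**Figure D2:**
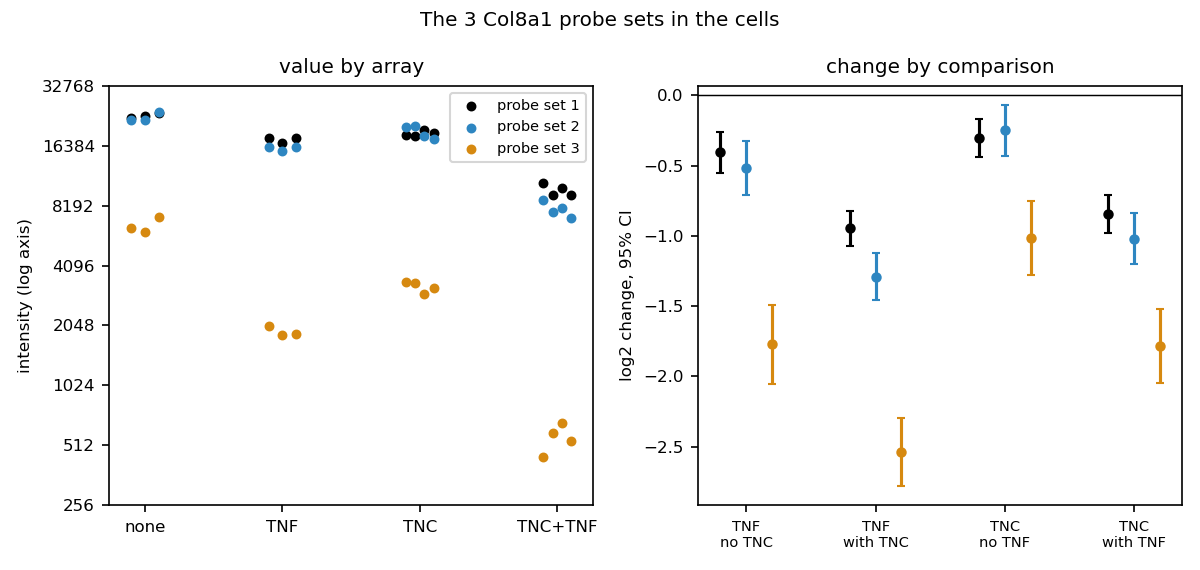
Left, intensity of the 3 Col8a1 probe sets (log axis) on the cell arrays by treatment; right, their log2 change with 95% confidence interval in 4 comparisons, probe set 1 being that used elsewhere. All 3 lie below 0 in all 4 comparisons, and the dimmest reaches -2.54 for TNF in the presence of TNC. Levels of different probe sets are not comparable.

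Col8a2, the partner chain, was dim in the cells. Untreated arrays read 91.8, 84.8 and 43.1, TNF arrays 37.3, 20.8 and 46.0, TNC arrays 46.0, 30.9, 38.2 and 21.8, and arrays with both 25.3, 29.0, 30.0 and 26.9. The filter on low values stood at 18.1 to 23.1, so many of these arrays lay just above it, and the untreated group overlapped those given TNF or TNC. Col8a2 fell, with a change of -1.08 for TNF alone (SE 0.36, adjusted p = 0.0353) and -1.08 for TNC alone (SE 0.33, adjusted p = 0.0290). Both factors against none gave -1.33 (SE 0.33, adjusted p = 0.00695). Adding a factor to the other gave -0.25 (95% interval -0.93 to 0.43) for TNF and -0.25 (-0.98 to 0.48) for TNC. The TNF call was lost without untreated array 1 (-0.88, adjusted p = 0.124), untreated array 2 (-0.94, 0.113), TNF array 1 (-1.17, 0.0555) or TNF array 2 (-0.75, 0.139). The TNC call was lost without untreated array 1 (-0.87, adjusted p = 0.116), untreated array 2 (-0.93, 0.105), TNC array 2 (-1.04, 0.0621) or TNC array 4 (-0.88, 0.0722). With median centring neither call held (adjusted p = 0.0591 and 0.0535), nor when only the groups compared were fitted (0.122 and 0.0733), and the TNC call was lost with quantile normalization (0.0645).

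Of the collagen VI chains, Col6a1 and Col6a2 ran partly together over the 14 cell arrays (Pearson's r of log2 signal 0.75). Col6a3 was less like either (-0.06 with Col6a1, 0.30 with Col6a2). Col6a1 read 5626, 4075 and 4763 untreated and 6556, 6538 and 6603 with TNF, and the groups did not overlap. With TNC alone it read 5364, 4238, 5155 and 4749.6, within the untreated range. Col6a1 rose by 0.46 with TNF alone (SE 0.11, adjusted p = 0.00835). In the presence of TNC the TNF arrays averaged 5643 ± 322 (SD, n = 4) against 4877 ± 496 (n = 4), a change of 0.21 that did not pass (adjusted p = 0.155). Col6a2 averaged 5966 ± 837 (n = 3) untreated, 6285 ± 139 (n = 3) with TNF, 4983 ± 436 (n = 4) with TNC and 5830.4 ± 555 (n = 4) with both. Its TNF arrays (6278, 6427 and 6149) all lay above its TNC arrays (5479.8, 4419, 5056 and 4979), and its only call was between TNC alone and TNF alone, -0.34 (SE 0.10, adjusted p = 0.0313). That call was lost without any 1 of the 3 TNF arrays (adjusted p = 0.0757, 0.0930 and 0.0678) or of TNC arrays 2, 3 and 4 (0.0782, 0.0509 and 0.0588), and with median centring (0.120) or quantile normalization (0.0590). Col6a1 gave -0.43 in the same comparison (SE 0.11, adjusted p = 0.00999). A second Col6a2 probe set gave -0.41 there, which was called. It gave 0.29 for TNF alone and 0.30 for TNF in the presence of TNC, neither called.

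Col6a3, the largest chain of collagen VI, read 3945, 2853 and 3033 untreated and 2459.8, 2464 and 2512 with TNF. With TNC it read 2482, 2079, 2369 and 2216, and with both factors 1849, 1339.6, 1895 and 1684. The untreated arrays were the highest and the arrays with both factors the lowest, with no overlap between either of them and the rest. It fell with TNC, by a change of -0.51 without TNF (SE 0.13, adjusted p = 0.0129) and -0.56 with TNF (SE 0.13, adjusted p = 0.00836). With TNF it fell in the presence of TNC (-0.44, SE 0.12, adjusted p = 0.0235). The change with TNF alone was -0.39 (SE 0.14, adjusted p = 0.0546), just outside the threshold; it passed without untreated array 2 (-0.48, 0.0371) or array 2 with both factors (-0.39, 0.0235), and under 6 changes of processing (adjusted p = 0.0477 with quantile normalization, 0.0358 with a filter at the 50th percentile, 0.0434 on log2(value + 32), 0.0205 with a trended robust fit, and 0.0293 and 0.0485 with a fixed or random replicate block). The call for TNC alone was lost without untreated array 1 (-0.37, adjusted p = 0.0590) and with median centring (-0.34, 0.0718). The call for TNF with TNC was lost without TNC array 1 (-0.40, adjusted p = 0.0684), TNC array 3 (-0.43, 0.0554) or array 2 with both factors (-0.34, 0.0550), and when only these 2 groups were fitted (0.0519). Both factors against none gave -0.95 (SE 0.13, adjusted p = 0.000128).

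The fibril-associated Col12a1 read 6529, 6123 and 4889.9 in untreated cells. TNF arrays read 2454, 2985 and 3107, TNC arrays 3274, 2307, 3999 and 3520.0, and arrays with both 2919, 2577, 3705 and 2604. The untreated arrays stood above all others, and the 3 treated groups overlapped. Col12a1 fell, with a change of -1.03 for TNF alone (SE 0.21, adjusted p = 0.00210) and -0.85 for TNC alone (SE 0.19, adjusted p = 0.00561). A further factor gave -0.14 for TNF (95% interval -0.53 to 0.25) and 0.04 for TNC (-0.38 to 0.46). The interaction was 0.90 (SE 0.27, adjusted p = 0.0404). The interaction call was lost without untreated array 1 (0.81, adjusted p = 0.0960), untreated array 2 (0.86, 0.0852), any of the 3 TNF arrays (0.79, 0.93 and 0.96; 0.0967, 0.0644 and 0.0556), TNC array 1 (0.91, 0.0633), TNC array 4 (0.94, 0.0525), or array 1 or 3 with both factors (0.90 and 0.78; 0.0617 and 0.0649). A second Col12a1 probe set gave -1.22 with TNF alone and -0.57 with TNC alone, both called, and an interaction of 0.73 that was not (adjusted p = 0.0815). The other 2 probe sets read at most 23.0 in the cells and averaging them in ended these calls (adjusted p = 0.415 and 0.260).

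Col14a1, the other fibril-associated chain, averaged 1438 ± 358 (SD, n = 3) untreated, 1684 ± 465 (n = 3) with TNF, 1450.5 ± 382 (n = 4) with TNC and 1111 ± 189 (n = 4) with both. All 4 groups overlapped. Its intervals were wide, from -0.38 to 0.81 for TNF alone and from -0.55 to 0.56 for TNC alone. TNC in the presence of TNF gave -0.58 (SE 0.25, adjusted p = 0.115). TNF alone gave 0.22 on this probe set and -0.28 on a second one. Both factors against none gave -0.36 and, on the second, -0.55 (adjusted p = 0.0804), none of them called.

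The multiplexins went opposite ways with TNF alone. Col18a1 read 371, 468 and 369 untreated, 729, 724 and 733 with TNF, 525, 587, 564 and 488 with TNC, and 861, 991, 893 and 1022 with both. The 4 groups did not overlap and stood in the order untreated, TNC, TNF and both. Col18a1 rose with TNF by 0.86 without TNC (SE 0.10, adjusted p = 5.54e-05) and by 0.80 with TNC (SE 0.09, adjusted p = 8.23e-05). It rose with TNC by 0.43 without TNF (SE 0.10, adjusted p = 0.00570) and by 0.37 with TNF (SE 0.10, adjusted p = 0.0156). The interaction was -0.07 (95% interval -0.37 to 0.24, adjusted p = 0.809). A second probe set gave 0.97, 0.45 and 0.66 for the first 3 of these changes, all called, and 0.15 for TNC in the presence of TNF and -0.51 for the interaction, not called. Averaging probe sets lost the call for TNC in the presence of TNF (0.26, adjusted p = 0.0988).

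Col15a1 read 628, 504 and 516 untreated and 401, 319 and 433 with TNF, without overlap. With TNC it read 512, 466, 454 and 462 and with both factors 474, 425, 438 and 412, between those groups or inside them. It fell by 0.52 with TNF alone (SE 0.12, adjusted p = 0.00460), a call that was lost when only these 2 groups were fitted (0.0556). Both factors against none gave -0.32 (SE 0.11, adjusted p = 0.0320), a call lost without untreated array 1 (-0.22, adjusted p = 0.146) or array 2, 3 or 4 with both factors (-0.31, -0.32 and -0.29; 0.0668, 0.0546 and 0.0729), with quantile normalization (-0.25, 0.0661) and with median centring (-0.11, 0.514). The difference between TNC alone and TNF alone was 0.31 (SE 0.11, adjusted p = 0.0532); it passed without untreated array 1 (0.0381) or TNF array 3 (0.40, 0.0292), and under 5 changes of processing (0.0347 and 0.0487 with other filters, 0.0477 on log2(value + 32), 0.0321 with a trended robust fit, 0.0305 with the replicate block).

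**Figure D3:**
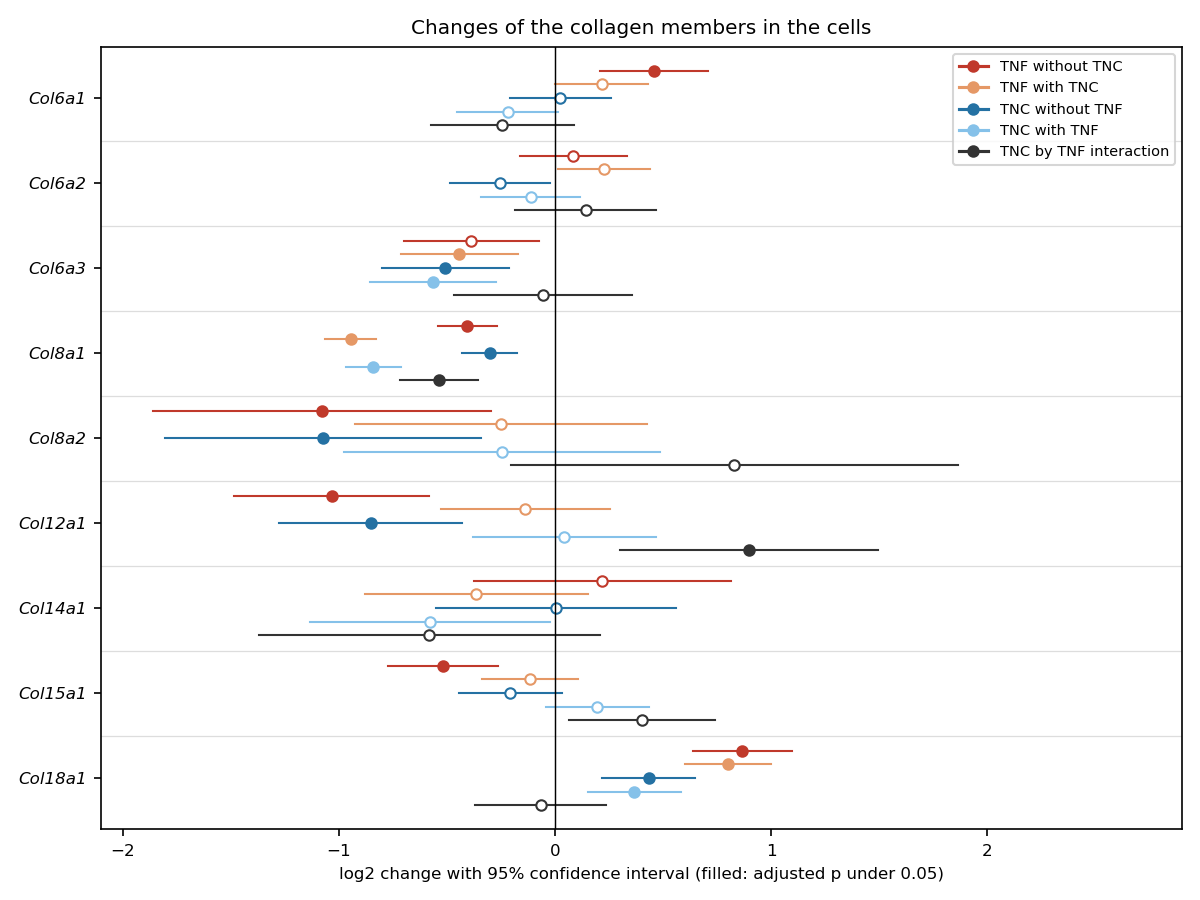
Log2 change (x axis) with 95% confidence interval for each collagen gene (y axis) in the 4 comparisons of a factor and in their interaction, from the limma fit over 14 cell arrays; filled points have an adjusted p under 0.05. Col8a1 lies below 0 and Col18a1 above 0 in all 4 comparisons, and the interactions of Col8a1 (-0.54) and Col12a1 (0.90) are filled.

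Large parts of the array moved in these cells, so the members' counts are read beside the share of all genes called. With TNF alone 2 of 9 members rose and 4 fell, where 14.3% of all genes were called higher and 20.3% lower. With TNF in the presence of TNC 1 rose and 2 fell (9.6% and 12.5% of all genes). With TNC alone 1 rose and 4 fell (16.1% and 15.7%), and with TNC in the presence of TNF 1 rose and 2 fell (16.3% and 11.9%). Both factors against none gave 1 higher and 5 lower (20.7% and 22.5%), and TNC alone against TNF alone 0 higher and 3 lower (18.2% and 10.4%). The interaction was called for 1 member above and 1 below 0 (9.81% and 9.01%). The comparisons share arrays and are not independent of each other. The counts of lower members are above the share of genes called lower in all 6 comparisons of groups, by a few genes of 9, and nothing particular to these collagens is read from them.

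Median changes over the members were -0.39 for TNF alone, -0.14 for TNF with TNC, -0.25 for TNC alone and -0.22 for TNC with TNF, against -0.06, -0.01, -0.03 and 0.00 over all genes tested. Centring each array on its median would raise all changes by 0.11 for TNF alone, 0.17 for TNC alone and 0.21 for both against none. It would turn the split of all called genes from 2214 higher and 3156 lower to 2620 and 1941 for TNF alone, and from 2506 and 2435 to 3986 and 1246 for TNC alone. For TNF with TNC the split went from 1491 and 1940 to 1374 and 1206. For TNC with TNF it went from 2534 and 1853 to 3030 and 1052, for both against none from 3217 and 3502 to 4790 and 1923, and for the interaction from 1524 and 1399 to 791 and 1238. Under that centring 2 members, Col18a1 and Col12a1, kept a call for TNC alone.

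Smooth muscle markers moved beside these changes. Their summed intensity was 40015 to 41568 in untreated cells, 23532 to 25566 with TNF, 32023 to 35205 with TNC and 24000 to 27123 with both; 6 of 7 fell with TNF alone and 5 of 7 with TNC alone. Of 8 fibroblast markers, 7 were tested; with TNF alone 1 rose (Pdgfra) and 2 fell (Cd34 and Scara5), and with TNC alone 4 rose and 2 fell, with Pdgfra at 2027 to 2379 untreated, 6290 to 7278 with TNF and 3967 to 4576 with TNC. Endothelial markers split 3 higher and 2 lower with TNF alone and 4 higher and none lower with TNC alone. Of 3 neutrophil markers tested, S100a8 and Camp rose in both, with log2 changes of 1.28 and 3.62 for TNF alone and 4.05 and 4.00 for TNC alone, from summed levels of 56.6 to 73.3 untreated to 254 to 292 with TNF and 425 to 652 with TNC. Their part in the collagen changes was not tested.

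Other collagen genes in the cells give a setting for the members. The basement membrane collagen IV chains fell with TNF alone in 6 of 6 and with TNC alone in 5 of 6 genes tested; Col4a4 gave -3.35 (SE 0.49) and -3.24 (SE 0.46), and Col4a5 -0.72 (SE 0.12) and -0.58 (SE 0.11). All 6 had an interaction above 0 that was called, as with Col4a2 (0.60, SE 0.07) and Col4a1 (0.49, SE 0.08). Of 9 fibril-forming collagens 1 rose and 3 fell with TNF alone and 1 rose and 1 fell with TNC alone. Col11a1 fell in both, with -2.81 (SE 0.41) and -3.94 (SE 0.38), and Col5a3 rose by 0.86 (SE 0.11) and 0.33 (SE 0.10). Col10a1, a network-forming relative of collagen VIII, fell in all 4 comparisons of a factor, with -1.43 (SE 0.19) and -0.94 (SE 0.16) for TNF and -2.13 (SE 0.17) and -1.63 (SE 0.17) for TNC; the other 2 chains of its list that were tested, Col6a4 and Col6a5, were not called. Of 5 other fibril-associated collagens tested, Col16a1 (-0.45, SE 0.12) and Col9a1 (-1.29, SE 0.38) fell with TNF alone, and Col9a1 fell with TNC alone (-1.81, SE 0.36).

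Genes whose products bind or process these collagens also moved in both directions. Among 11 matrix partners tested, 2 rose and 2 fell with TNF alone and likewise with TNC alone. Dcn, whose product decorin binds collagens VI, XII and XIV, rose by 1.16 (SE 0.07, adjusted p = 2.74e-07) and 1.45 (SE 0.07, adjusted p = 4.23e-08); Fmod, encoding fibromodulin, fell (-1.04, SE 0.29, and -0.90, SE 0.27). Vwa1, whose product binds collagen VI and perlecan, fell with TNF alone (-0.52, SE 0.13) and with TNF in the presence of TNC (-0.74, SE 0.11). Among 12 receptors and cell-surface partners tested, 1 rose and 4 fell with TNF alone and 3 rose and 6 fell with TNC alone. Cspg4, the collagen VI receptor NG2, fell (-2.12, SE 0.21, and -0.94, SE 0.19), and so did the collagen-binding integrin chain Itga1 (-0.63, SE 0.10, and -0.54, SE 0.10). Among 11 assembly and processing genes, 3 rose and 4 fell with TNF alone and 4 rose and 3 fell with TNC alone. The prolyl hydroxylase P4ha2 rose by 0.80 (SE 0.07) and 0.83 (SE 0.06), and the lysyl hydroxylase Plod2 fell (-0.56, SE 0.05, in each).

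In the aorta CaAngII went with higher signal for most of these collagens, with the widest ratios in the infrarenal segment, for Col8a2 and Col12a1. Each comparison sets 1 pool against 1, so there is no test and no error; a member is counted where it differed at least 2-fold and reached the 50th percentile of the array in either pool.

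**Figure D4:**
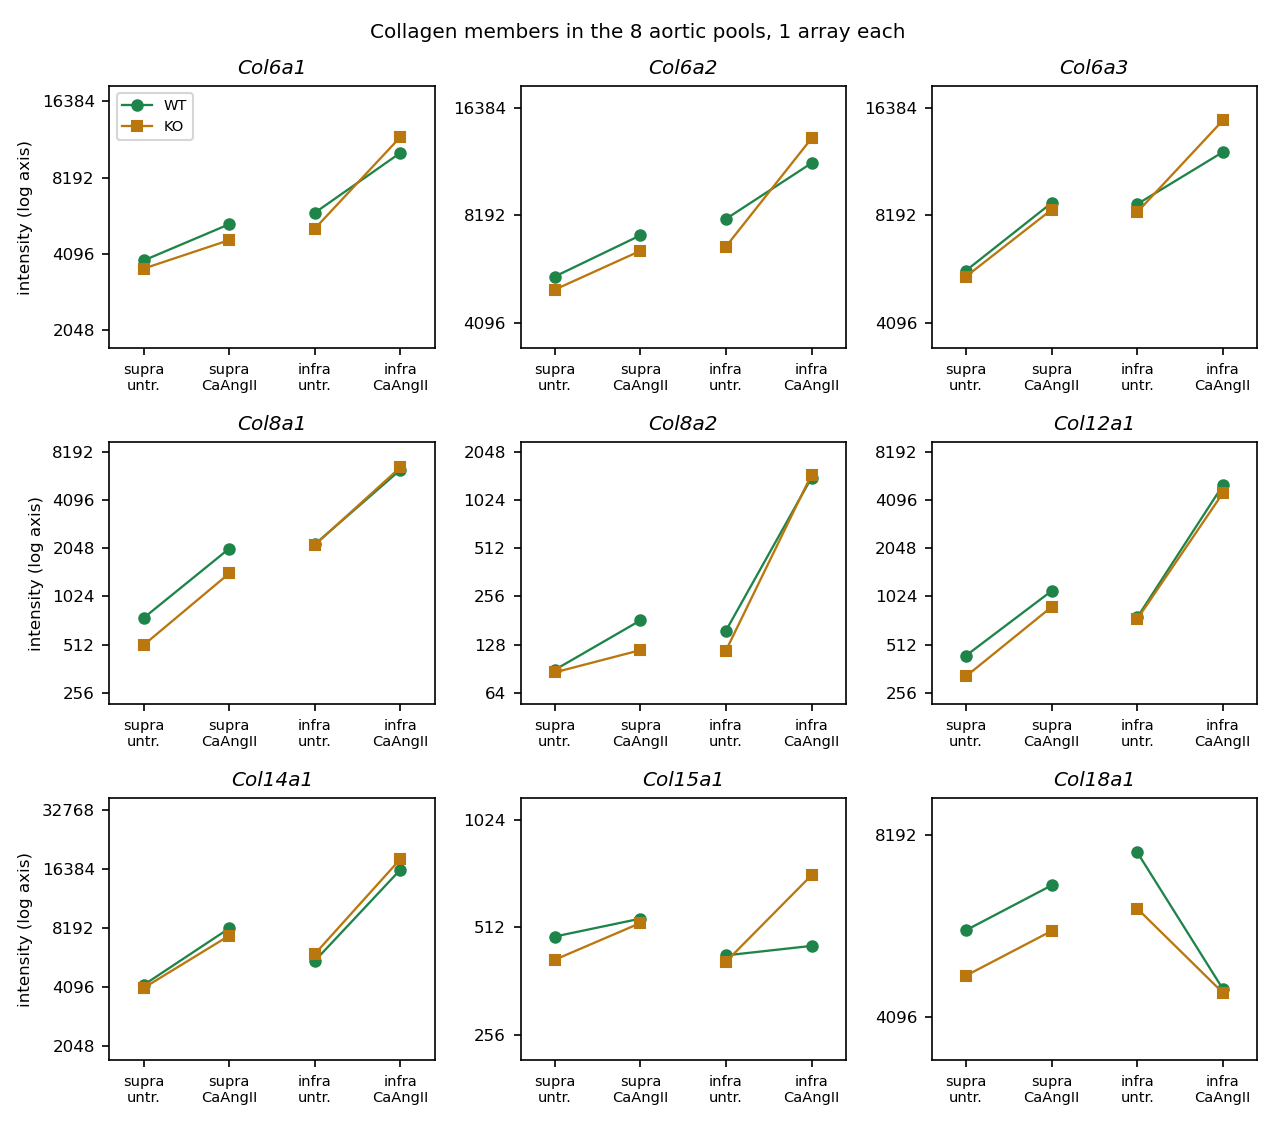
Intensity of the 9 collagen genes (y axis, log scale, differing by panel) in the 8 aortic pools, 1 array each, by segment and treatment (x axis), with WT as circles and KO as squares; lines join untreated and CaAngII pools of the same genotype and segment. Col8a2 stands at 156 and 1410.2 in the untreated and CaAngII infrarenal pools of WT and at 117 and 1473 in those of KO, and Col18a1 is lower under CaAngII in the infrarenal pools only.

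In WT suprarenal aorta 3 of 9 members were at least 2-fold higher under CaAngII (1.22% of genes were) and none was lower (2.39%). The 3 were Col8a1 (749.7 untreated, 2033 CaAngII), Col12a1 (437 and 1106) and Col8a2 (88.9 and 181), with log2 ratios of 1.44, 1.34 and 1.03. A second Col12a1 probe set, near the filter, read 98.9 and 101 in that pair (0.03), and averaging the gene's probe sets gave 0.61. In KO suprarenal aorta 2 of the 8 members that passed the filter were at least 2-fold higher (3.59% of genes) and none was lower (1.55%). They were Col8a1 (508 and 1423, 1.49) and Col12a1 (324 and 879, 1.44; 0.97 with probe sets averaged). Col8a2, at 85.8 and 118, stayed below the 50th percentile on both KO suprarenal arrays. Col14a1 was just under the 2-fold limit in both genotypes, at 4196 and 8161 in WT (0.96) and 4053 and 7491 in KO (0.89).

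In WT infrarenal aorta 4 of 9 members were at least 2-fold higher (10.6% of genes) and none was lower (7.05%). Col8a2 went from 156 to 1410.2 (3.17), Col12a1 from 755 to 5045 (2.74), Col8a1 from 2160.3 to 6308 (1.55) and Col14a1 from 5566 to 16235 (1.54). In KO infrarenal aorta 6 of 9 were at least 2-fold higher (11.1%) and none was lower (6.33%). The same 4 genes gave 3.65 for Col8a2 (117 and 1473), 2.61 for Col12a1 (738 and 4509), 1.61 for Col8a1 (2143 and 6545) and 1.61 for Col14a1 (6034 and 18396). The other 2 were Col6a1 (5151 and 11842, 1.20) and Col6a2 (6696 and 13445, 1.01). In the WT infrarenal pools Col6a1 gave 0.79 (5948 and 10261) and Col6a2 0.52 (7999 and 11464). Col6a3 was higher by 0.48 in WT (8800.2 and 12304) and by 0.85 in KO (8356 and 15086).

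On the deposited scale Col18a1 was the only one of the 9 lower under CaAngII in any pair. It was higher under CaAngII in the suprarenal pools, by 0.25 in WT (5701 and 6760.2) and 0.24 in KO (4798 and 5685), and lower in the infrarenal pools, by a log2 ratio of -0.75 in WT (7667 and 4564) and -0.46 in KO (6191 and 4497). Its second probe set gave 0.29, 0.46, -0.65 and -0.39 in the same order. Col15a1 was higher by 0.17 and 0.34 in the WT and KO suprarenal pools. In the infrarenal pools Col15a1 gave 0.09 in WT (427 and 454), which was -0.01 after median centring, and 0.80 in KO (410.0 and 716). Median ratios over the members that passed the filter were 0.63, 0.79, 0.50 and 1.20 for WT suprarenal, WT infrarenal, KO suprarenal and KO infrarenal aorta, against 0.02, 0.00, -0.04 and 0.07 over all genes counted.

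Cell type markers differed strongly between the same pools. Summed macrophage markers were 57699 and 58326 in the WT and KO infrarenal CaAngII pools against 14344 and 12408 untreated, and 8 of 8 were at least 2-fold higher in both genotypes. Fibroblast markers summed to 63178 and 71791 against 54180 and 52868. Smooth muscle markers summed to 51418 and 58806 against 92263 and 93175, and endothelial markers to 11396 and 11266 against 18551 and 16281. In the suprarenal pools macrophage sums were 21747 and 22180 against 16591 and 13666, and fibroblast sums 44464 and 40060 against 33278 and 29373. The KO suprarenal CaAngII pool stood apart in neutrophil markers, at 32672 against 853 in the matching WT pool. Lymphocyte markers went from 3467 to 388 in WT and from 4653 to 541 in KO suprarenal aorta, 5 of 5 at least 2-fold lower in each. Adrenal markers went from 397 to 2805 in WT suprarenal aorta, with 4 of 5 at least 2-fold higher, and from 5545 to 622 in KO infrarenal aorta, with 4 of 5 lower. Fat markers summed to 43797 to 80089 over the 8 pools, nerve markers to 1755 to 18757 and mesothelial markers to 99.4 to 489. Their part in the collagen values was not tested.

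Between KO and WT pools few genes of any kind differed 2-fold. KO against WT, 0 members differed at least 2-fold in suprarenal untreated aorta (1.86% of genes did), suprarenal CaAngII (2.86%), infrarenal untreated (1.7%) and infrarenal CaAngII (1.17%). A count of 0 is near those shares, and nothing particular to these collagens is read from it. In the suprarenal pools the KO value was below the WT value for every member in both treatments, with the widest gaps for Col8a1 (-0.56 untreated, -0.51 CaAngII), Col12a1 (-0.43 and -0.33) and, under CaAngII, Col8a2 (181 against 118, -0.62). Those signs held under quantile normalization and under median centring. The median ratios over all genes counted were 0.016 untreated and -0.039 under CaAngII, against -0.17 and -0.21 over the members that passed the filter. On the second Col12a1 probe set the KO value was lower untreated (-1.08) and higher under CaAngII (0.81). Averaging probe sets turned Col14a1 in the untreated pair from -0.05 to 0.36. In the infrarenal untreated pools Col14a1 was the member not lower in KO (0.12), and its second probe set gave -0.20. There 8 of 9 members were lower in KO, with 7 under quantile normalization, 9 under median centring and 6 with probe sets averaged. The median ratio over all genes counted was -0.055 in that pair, against -0.075 over the members. In the infrarenal CaAngII pools 7 of 9 were higher in KO, led by Col15a1 (454 against 716, 0.66). Under median centring 8 were higher, and with probe sets averaged 6. The median ratio in this pair was 0.025 over all genes counted and 0.18 over the members. For Col8a1 and Col12a1 averaging in dim probe sets turned the infrarenal untreated ratios from -0.01 to 0.80 and from -0.03 to 1.03. With 1 pool a side these ratios cannot be set against a spread between mice.

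Infrarenal aorta read higher than suprarenal aorta for most members. At least 2-fold, 1 of 9 was higher in untreated WT (1.96% of genes; 7.58% were lower), 3 of 9 in CaAngII WT (9.51%; 11.2% lower), 2 of 8 in untreated KO (3.08%; 9.79% lower) and 6 of 9 in CaAngII KO (6.79%; 9.34% lower), and no member was lower by that much. Col8a1 differed by 1.53 in untreated WT, 2.08 in untreated KO, 1.63 in CaAngII WT and 2.20 in CaAngII KO. Col12a1 differed by 0.79, 1.19, 2.19 and 2.36, and Col8a2 by 0.81, 0.45, 2.96 and 3.64, in the same order. Averaging probe sets turned the untreated WT ratio of Col12a1 to -1.13. Col18a1 was higher in the infrarenal pools without treatment (0.43 in WT, 0.37 in KO) and lower with CaAngII (-0.57 and -0.34). Segment comparisons share their pools with the treatment comparisons.

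Related genes in the infrarenal pools were examined by the same lists. Of 8 fibril-forming collagens counted, 5 were at least 2-fold higher under CaAngII in WT and 5 in KO, among them Col1a1 (log2 ratio 1.57 and 1.68), Col5a1 (1.29 and 1.46) and Col11a1 (4.08 and 4.04). None of the 6 collagen IV chains was higher and 3 were lower in WT and 2 in KO, with Col4a4 at -1.84 and -1.77. Among other fibril-associated collagens Col16a1 was higher (2.08 and 2.43) and Col19a1 lower (-2.43 and -2.25). Of 11 matrix partners 3 were at least 2-fold higher in each genotype: Comp, a ligand of collagens XII and XIV (3.00 and 3.51), Fmod (2.19 and 2.56) and Matn4 (1.73 and 1.33). Of 11 assembly genes 4 were higher in each genotype, including P4ha3 (2.98 and 2.35), Bmp1 (1.45 and 1.72) and Lox (1.08 and 1.20). None of the 11 receptors counted differed at least 2-fold; the collagen VI receptors Antxr1 and Antxr2 gave 0.59 and 0.43 in WT and 0.67 and 0.73 in KO.

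The cultured cells and the aorta differed in which members were bright. Untreated KO cells read 22718 to 24090.1 for Col8a1 against 508 in the untreated KO suprarenal pool, and 4889.9 to 6529 for Col12a1 against 324. Col18a1 read 369 to 468 in the cells against 4798, and Col14a1 1144 to 1837 against 4053. Col6a1, Col6a2 and Col15a1 lay within 0.43 of the pool on the log2 scale and Col8a2 at -0.23, taking the mean of the 3 arrays. Col6a3 lay at -0.75 by the same measure, with 2853 to 3945 in the cells against 5520. Cells and pools also differ in array median and in cell types, as given above, and no test was made between them.

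Likeness of pattern was measured as Pearson's r of log2 signal, given as a description with no p. Over the 14 cell arrays, among 15533 other genes, the genes most like Col8a1 were Cbfa2t3 (0.987), Shroom3 (0.981) and Thbs1 (0.979), and those most like Col18a1 were Dnajc1 (0.972), Gpr84 (0.969) and Fam104a (0.968). Col12a1 was closest to Col4a5 (0.956). Over the 8 pools, among 12682 other genes, Col6a1 and Col6a2 had r = 0.997 with each other, and Col6a1 was the second closest gene to Col6a2. In the cells the same pair had r = 0.751. Col6a3 in the pools had r = 0.964 with Col6a1 and 0.970 with Col6a2. Col12a1 and Col14a1 had r = 0.988 with each other there. Col12a1 was closest to Col1a1 in the pools (0.996). Col8a2 was closest to Slc38a10 (0.998) and then Bmp1 (0.997), and Col8a1 to Tmem119 (0.996) and then Pcolce (0.994). Col8a1 and Col18a1 ran opposite in the cells (r = -0.91). All these arrays share treatments that moved many genes, so high values are common.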

How the data were processed

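RNA was measured on 22 Affymetrix mouse arrays. The deposited intensities are linear values, 1 per probe set, made with Affymetrix Expression Console per the submitters' processing notes; which algorithm and scaling it applied is not given in the sources used. Averaging the central 96% of an array's probe sets gave 500.002 to 500.003 on every array, so a shift of the whole array would not show. The labels give a different time after TNF for each cell array, 23 to 36 hours, where the design text gives 24. The labelled times follow the groups: 23 to 25 untreated, 26 to 28 with TNF, 29 to 32 with TNC and 33 to 36 with both. If the labels hold, time and treatment cannot be told apart in the cells. Titles of the TNC arrays read TNC or TNF; the treatment label was followed.

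Of 45101 probe sets, 64 controls, 932 with several symbols and 9160 unnamed ones were left out, leaving 34945 for 18193 genes. Intensities were taken as log2 with no pseudocount. A gene was tested in the cells where it reached the 30th percentile of the array on at least 3 of 14 arrays, and counted in a pair of pools where it reached the 50th percentile on 1 of the 2. The percentile was first taken over all arrays together (14663 genes) and changed to each array's own (15534) before any member's test was viewed but after member intensities had been seen; the first form is among the alternatives. The 4 cell groups were fitted together by limma 3.58.1 under R 4.3.3, leaving 10 residual degrees of freedom, with group as the only term and Benjamini-Hochberg adjustment over all genes tested. Tables were made with Python 3.11.15. The fit was tested on simulated data. Pools have 1 array each and no test. Where replicates are not known to be separate cultures, p-values measure only the spread between arrays.

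The members, lists and markers were chosen with earlier results of these data known. Genes outside the members were named from the lists by lowest adjusted p or largest ratio, or as those of closest pattern; Pdgfra and the other single markers given were picked after their values were seen. Alternatives changed the normalization, filter, probe set rule, pseudocount, model and replicates.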

Additional observations from a re-analysis of the deposited data

Results flagged for a closer look

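Col8a1 and Col12a1 were singled out because the effect of TNF differed with the presence of TNC by limma's test of the difference. For Col8a1 the difference was -0.54 and for Col12a1 it was 0.90, on the log2 scale. The 2 genes had opposite signs: TNF given with TNC lowered Col8a1 by more than TNF without it (-0.95 against -0.41), while Col12a1 fell with TNF alone (-1.03) and gave -0.14 for TNF given with TNC. Col12a1's difference was lost under several alternatives, given with the effects of processing.

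Col14a1 was singled out because KO against WT pointed one way in the suprarenal pools and the other way in the infrarenal pools. Its ratios were -0.050 untreated and -0.12 under CaAngII in suprarenal aorta, and 0.12 and 0.18 in infrarenal aorta. The difference was not tested, each value sets 1 pool against 1, and the infrarenal untreated ratio was -0.04 after median centring and -0.20 on a second bright Col14a1 probe set, where the split by segment was therefore not seen.

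Col18a1 was singled out because CaAngII against untreated gave 0.25 (WT) and 0.24 (KO) in suprarenal aorta, and -0.75 and -0.46 in infrarenal aorta. Read by segment, infrarenal against suprarenal, the same 8 values gave 0.43 and 0.37 in untreated WT and KO, and -0.57 and -0.34 under CaAngII. These differences were not tested. Summed endothelial markers were 18551 and 16281 in the untreated infrarenal pools and 11396 and 11266 in the CaAngII ones; their part in the result was not tested. Each of the 9 members was examined for an array far from the rest in the TNC group and in the group with both factors. Of these 18 sets of 4 arrays 0 met the limit, where chance gives about 1 in 20. The untreated and TNF groups, of 3 arrays each, were not examined.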

How the results depend on the processing

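Of 63 tests of a member in the cells, 28 were called; 15 of those calls held under each of the 24 to 26 alternatives run for them, 13 were lost at least once, and 0 changed sign. Of the 35 not called, 5 passed at least once and 9 changed sign. Calls of Col8a1 were lost only for TNC alone, under median centring. Those of Col18a1 were lost only for TNC in the presence of TNF, with averaged probe sets. With an array left out, calls were lost for Col8a2 with TNF alone and with TNC alone, as given above. Also lost were Col6a3 with TNC alone and with TNF in the presence of TNC, and Col12a1's interaction. Col6a2 lost its call between TNC alone and TNF alone, and Col15a1 that for both factors against none. Other calls of these genes held in every such fit. The fit with the replicate number as a block lost the Col8a2 calls for TNF alone (-1.08, adjusted p = 0.0528 by limma) and TNC alone (-0.97, 0.0756) and the Col12a1 interaction (0.0681). The number did not pair the arrays: deviations of same-numbered arrays had r of -0.02 to 0.06 over 19 pairs.

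Members called for TNC alone numbered 2 under median centring, and 3 to 5 over the 14 leave-one-out fits (3 without untreated array 1). Members called for the interaction numbered 1 with no filter, with averaged probe sets and with the replicate block. They numbered 1 to 2 with an array left out. With each probe set by itself 1 was called. That alternative read only each member's brightest probe set, adjusted over all probe sets tested. Signs of values not called turned for Col14a1 with TNC alone (-0.019 quantile, -0.012 replicate block), Col12a1 with TNC in the presence of TNF (-0.30 averaged), Col6a2 with both against none (0.18 median centring, 0.076 averaged), and, for TNC alone against TNF alone, Col12a1 (-0.19 averaged), Col14a1 (0.017 averaged) and Col8a2 (-0.0045 on log2(value + 32)). Ranges with 1 array left out crossed 0 for Col6a2 with TNF alone (-0.0088 to 0.19), Col6a1 (-0.092 to 0.14) and Col14a1 (-0.15 to 0.19) with TNC alone, Col12a1 with TNC in the presence of TNF (-0.072 to 0.11), Col6a2 with both (-0.12 to 0.077), Col8a2 between TNC and TNF alone (-0.33 to 0.25) and the Col6a3 interaction (-0.20 to 0.052).

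Counts of genes in the pools, which have no test, moved with the limits. With no filter CaAngII gave 2540, 4474, 2753 and 4519 genes (WT suprarenal, WT infrarenal, KO suprarenal, KO infrarenal), KO against WT 2345, 2319, 2370 and 2136 (suprarenal untreated and CaAngII, infrarenal untreated and CaAngII), and the segments 3413, 4803, 3935 and 4270 (WT untreated and CaAngII, KO untreated and CaAngII). At 1.5-fold the same counts were 1191, 3923, 1453 and 4076, then 883, 876, 655 and 474, then 2544, 4514, 3150 and 3908. Members at 1.5-fold were 5 and 4 for CaAngII in WT and KO suprarenal aorta, 1 for KO against WT in suprarenal and 1 in infrarenal CaAngII aorta, and 5 and 6 for the segments in untreated and CaAngII WT. The percentile over all arrays gave 368, 377 and 232 for KO against WT (suprarenal untreated, infrarenal untreated, infrarenal CaAngII), and quantile normalization 315 for infrarenal untreated. Averaged probe sets left 1 member for CaAngII in KO suprarenal aorta and 1 for the segments in untreated KO. Counts over all genes have no value with each probe set by itself. The cause of these shifts was not tested. Dim probe sets such as those of Col8a2 in the cells, close to the filter, limit what could be detected there.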
